A study of Paralichthys olivaceus with 2 samples.

Results

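The miRNAs described here are miR-126, miR-126b, miR-221 and miR-222, a group linked to blood vessels. They were chosen by name, as the probes for these mature miRNAs of zebrafish (dre) or pufferfish without passenger strands. The rule found 4 probes among 263 for known miRNAs and 987 in all, and each was a zebrafish probe. Of the 4, dre-miR-126, dre-miR-221 and dre-miR-222 lay above the detection limit on at least 1 array and dre-miR-126b on neither. Small RNA of whole Japanese flounder (Paralichthys olivaceus) larvae was hybridised to single-colour arrays, 1 array for larvae at 29 days post hatching (dph), labelled mid-metamorphosis, and 1 for larvae at 17 dph, labelled pre-metamorphosis. Each RNA came from a tube of 5 anaesthetised larvae, and the labels give no strain or treatment beyond this. Since each stage is a single array, differences lack a replicate check and carry no p-value, and an SD is taken over a probe's 3 spots. In whole larvae, fewer cells of a type and less RNA per cell cannot be told apart.

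A miRNA is a short RNA that guides repression of mRNAs through its seed, bases 2 to 8. In vertebrates miR-126 lies in an intron of the endothelial gene Egfl7 and is enriched in endothelial cells, where it favours signalling by vascular endothelial growth factor through repression of inhibitors such as Spred1. In zebrafish, loss of miR-126 impairs vessel integrity. miR-221 and miR-222 come from 1 gene cluster and share a seed. In mammals they repress the receptor Kit and the cell cycle inhibitor p27, with effects on endothelial and vascular smooth muscle cells, and in zebrafish miR-221 acts in the tip cells of sprouting vessels.

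The target sequences on the array show which measurements belong together, and capitals mark the seed. The PN-coded probes are the study's own flounder candidates, here nested with a known miRNA and so a second measurement of it. The last sequence, miR-222b, was outside the naming rule and is shown because it has the seed of miR-221 and miR-222.
dre-miR-126: uCGUACCGugaguaauaaugc
PN68: uCGUACCGugaguaauaaugca
dre-miR-126b: uCGUACCGugaguaauagugca
dre-miR-221: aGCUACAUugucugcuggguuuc
PN24: aGCUACAUugucugcuggguuu
dre-miR-222: aGCUACAUcuggcuacugggucuc
PN99: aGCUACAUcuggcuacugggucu
dre-miR-222b: aGCUACAUcugaauacuggguca

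PN68 is miR-126 with 1 further base at the 3′ end, whereas PN24 and PN99 each lack the last base of miR-221 and miR-222. Between miR-126 and miR-126b the 21 compared positions differ at 1, A18G, counted from the 5′ end with the base of miR-126 first. PN68 and miR-126b have the same length of 22 nt and differ by A18G alone. miR-221 and miR-222 share their first 8 bases and diverge after the seed. miR-222b differs from miR-222 over 23 positions by G12A, C13A and U23A. On the whole array 3 probes carried the seed of miR-126 and 5 that of miR-221 and miR-222, and all 8 are listed above. The files used here give no genome position for these miRNAs.

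The deposited value of a spot is its mean density, a linear intensity with no background subtraction. A probe counted as detected when at least 50% of its spots exceeded the mean of the 715 empty spots on its array by over 3 SD, a density of 45.6 at 29 dph and 68.7 at 17 dph. Of the known miRNA names 126 were detected at 29 dph and 66 at 17 dph. Among detected probes the spots had a median CV of 6.49% at 29 dph, against 8.06% at 17 dph. Precision is limited by the number of arrays.

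miR-126 was bright at 29 dph and could not be told from empty spots at 17 dph. Its 3 spots had densities of 659.6, 668.7 and 631.9 at 29 dph, against 47.8, 47.6 and 52.1 at 17 dph, where the median empty spot stood at 45.6. All 3 spots at 29 dph were above the detection limit and 0 were at 17 dph, and the spots of the stages did not overlap. The second probe gave the same picture. PN68 had 645.4, 586.5 and 663.5 at 29 dph, against 59.5, 60.3 and 53.8 at 17 dph. Its spots at 17 dph were somewhat above the median empty spot and below the limit. By a lower limit based on the median and median absolute deviation of the empty spots, 54.9 at 17 dph, PN68 counted as detected there and miR-126 did not.

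miR-126b had no signal above background at either stage, with a density of 41.2 ± 1.1 at 29 dph and 45.9 ± 3.7 at 17 dph (SD, 3 spots each). The probe for PN68, whose target differs from that of miR-126b by the 1 substitution named above, had 631.8 ± 40.2 on the same 29 dph array. The opposite strand miR-126* was also below the limit on both arrays, at 38.3 ± 0.48 at 29 dph and 42.5 ± 4.3 at 17 dph. A probe labelled miR-126b* has the target of miR-126b without its first base, so that it lies on the same strand. It too was below the limit, at 38.9 ± 2.2 at 29 dph and 43.5 ± 1.6 at 17 dph. Signal above the limit at 29 dph was thus found at the probes for miR-126 and PN68, and not at those for miR-126b or the opposite strand.

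miR-221, the first of the clustered pair, was detected at both stages. Its spots had densities of 255.5, 242.9 and 250.2 at 29 dph, against 86.3, 73.5 and 82.1 at 17 dph. The spots did not overlap, and those at 17 dph lay just above the limit of 68.7. PN24 had 775.5, 707.0 and 662.9 at 29 dph, against 183.0, 167.7 and 139.3 at 17 dph. Before any scaling, both probes of miR-221 were therefore brighter at 29 dph. Their density ratios, 29 dph over 17 dph, were 3.09 for miR-221 and 4.38 for PN24. These ratios include background. With the median empty spot of each array subtracted, they were 6.01 for miR-221 and 5.74 for PN24.

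miR-222, its cluster partner, was also detected at both stages. Its spots had densities of 319.0, 334.3 and 344.1 at 29 dph, against 188.7, 181.8 and 177.5 at 17 dph. PN99 had 382.7, 370.3 and 397.1 at 29 dph, against 155.7, 140.5 and 150.6 at 17 dph. The density ratios were 1.82 for miR-222 and 2.57 for PN99, below those of both miR-221 probes. With the median empty spot subtracted they were 2.14 and 3.33, again below those of both miR-221 probes. miR-222b, with the same seed, stayed under the limit at 40.3 ± 0.99 at 29 dph and 44.3 ± 1.1 at 17 dph.

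**Figure D1:**
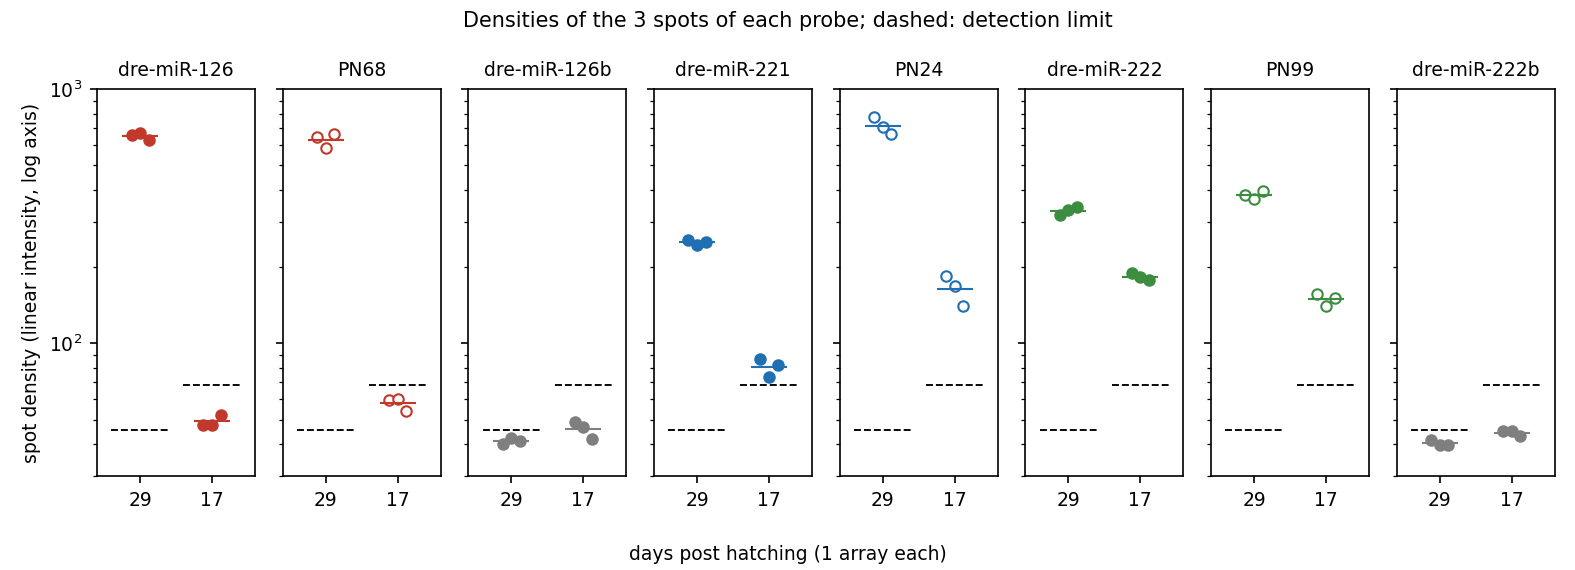
Spot densities (linear intensity on a log axis) of the members, their nested candidates (open circles) and miR-222b at 29 and 17 dph, with bars at the mean of the 3 spots and dashed lines at each array's detection limit, 45.6 at 29 dph and 68.7 at 17 dph. The miR-126 probes cross the limit between stages, the miR-221 and miR-222 probes are above it at both, and miR-126b and miR-222b are below it at both.

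Over all probe spots, known miRNAs and candidates together, the median density was 139.4 at 29 dph, against 55.4 at 17 dph. Over the spots of known miRNA probes alone it was 44.9 at 29 dph and 46.4 at 17 dph. Densities were background-corrected and quantile-normalized over all 987 probes, which places a miRNA relative to the other probes of its array. A call of higher or lower needed a log2 difference (29 dph minus 17 dph) of size 1 or more and normalized spots that did not overlap between stages. Of 126 tested names 8.73% were called higher and 17.5% lower, and the median difference was -0.29. All 22 names called lower were among the 66 detected on both arrays, as was miR-222. Most of the 11 called higher were, like miR-126, detected at 29 dph only. Among the 3 detected members 1 was called higher, 1 lower and 1 neither. Among 556 tested candidate probes 13.5% were called higher and 10.8% lower, and of the 3 nested candidates PN68 was called higher and the others neither. The split of calls followed the scaling, with 64 names higher and 1 lower when the arrays were not scaled, and 6 higher and 83 lower with 1 factor per array taken from the median of probes seen at both stages.

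On this scale miR-126 was higher at 29 dph, with a normalized log2 signal of 8.22 ± 0.033 at 29 dph and 6.21 ± 0.27 at 17 dph (SD, 3 spots). Since its level at 17 dph is only a bound, the fold was taken against the lowest signal of a detected probe on the 17 dph array, a log2 signal of 7.12. miR-126 was then at least 2.15-fold higher at 29 dph, a log2 bound of 1.11, and PN68 at least 2.10-fold higher, a bound of 1.07. The differences as measured were 2.02 and 1.35. With its 17 dph signal below the limit, the measured difference gives no rank among the names.

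Among the 126 tested names miR-221 stood at the middle and miR-222 near the low end. miR-221 had a normalized log2 signal of 7.23 ± 0.023 at 29 dph and 7.52 ± 0.18 at 17 dph, a difference of -0.29 (SE from the spots 0.10) that was called neither. Its rank was 64 of 126 from the most positive, a count that includes names below the limit at 17 dph. Among the 66 names detected on both arrays it had rank 49 from the most negative, above their median difference of -0.70. PN24 gave -0.39. miR-222 had 7.51 ± 0.037 at 29 dph and 8.91 ± 0.063 at 17 dph, a difference of -1.40 (SE from the spots 0.042), and was called lower. It had rank 11 from the most negative, counted over all 126 names or over the 66 detected on both arrays. PN99 gave -0.93, short of the size needed for a call. A lower value here is relative to the other probes, since the density of miR-222 itself was above that at 17 dph.

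**Figure D2:**
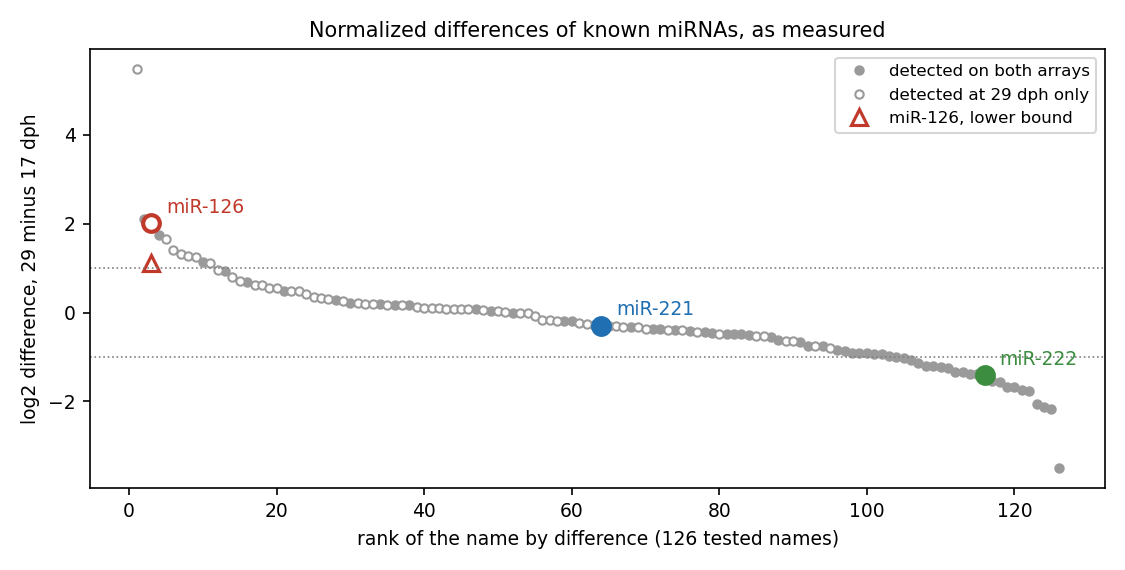
Log2 difference as measured (29 dph minus 17 dph) of the 126 tested names against their rank, with names detected at 29 dph only as open circles and dotted lines at the size needed for a call. miR-126 is drawn open, as measured, with its lower bound of 1.11 as a triangle, while miR-221 is at rank 64 and miR-222 at rank 116.

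A further comparison set miR-126 against the clustered pair. The mean difference of miR-221 and miR-222 was -0.85. miR-126 exceeded this mean by at least 1.95 on the log2 scale, or by 2.86 as measured (SE from the spots 0.17). The second probes gave the same direction. PN68 was above the mean of PN24 and PN99 by at least 1.73, or by 2.02 as measured (SE from the spots 0.13). No separate SE was computed for the bounds. Within the pair miR-221 was above miR-222 by 1.11 (SE from the spots 0.11), and PN24 above PN99 by 0.54 (SE from the spots 0.14). These SE values hold the spread of spots within an array and nothing of how larvae, RNA preparations or arrays vary.

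Spots of 1 probe do not show how far 2 probes of 1 miRNA can disagree. Over the array 33 pairs of a known miRNA probe and a nested candidate were detected at both stages, from 29 known miRNA probes and 30 candidates. Some probes were thus in several pairs, and a candidate could be nested with 2 names, as PN4 was with miR-133a and miR-133b. The gaps are therefore not all between 2 probes of 1 miRNA, and not all independent. The gap between the 2 log2 differences of a pair had a median of 0.27, and 90% of the pairs were within 0.82, with a largest gap of 0.97. The gap was 0.10 for miR-221 and PN24 and 0.47 for miR-222 and PN99, and it was 0.66 for miR-126 and PN68, which were both below the limit at 17 dph. That pair was 1 of 34 detected at 29 dph by both probes but not by both at 17 dph, whose gaps had a median of 0.52 and reached 1.55. A contrast between miRNAs holds the gaps of several probes. The bound of 1.95 for miR-126 over the pair was larger than any gap in either set. The difference of 1.11 between miR-221 and miR-222 exceeded the 33 gaps by the known probes, whereas the 0.54 of their nested candidates lay within them. Nested probes share nearly all their sequence, so the gaps hold little of any difference that goes with GC content between miRNAs. With the GC trend described below removed, the bound was 1.19, under the largest gap of 1.55. The difference between miR-221 and miR-222 was then 0.51, within the 33 gaps.

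**Figure D3:**
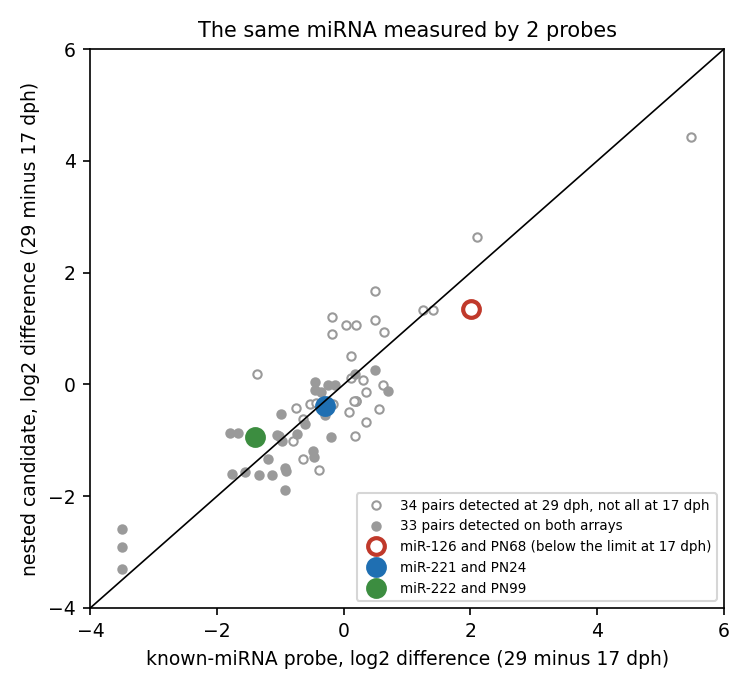
Log2 difference (29 dph minus 17 dph) by a nested candidate probe against that by the known-miRNA probe for the 33 pairs detected on both arrays (filled) and the 34 detected at 29 dph but not fully at 17 dph (open), with the line of equality. The pair of miR-221 lies 0.10 below the line and that of miR-222 0.47 above it, and that of miR-126 lies at the upper right with those of miR-1, miR-199*, miR-200b and miR-200c, which were named after their values were seen.

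The order of the members was kept in the ways of processing compared, although signs of miR-221 and miR-222 were not. In the 11 ways of processing compared, the order was miR-126, then miR-221, then miR-222 in 11, with miR-126 at its bound as well as measured. Scaling by 1 factor per array shifts all unscaled differences alike, so it could not change the order found without scaling. Of the detected members miR-126 had the highest density at 29 dph and the lowest at 17 dph. Any processing that keeps the order of signals within each array, such as quantile normalization, therefore had to place miR-126 first, at its bound too. Under such processing only the order of miR-221 and miR-222 could vary, so the count of 11 is no check on the place of miR-126. PN68, PN24 and PN99 had the matching order in 10, and with the GC trend removed PN99 stood above PN24. miR-126 was positive in 11 of 11 and called higher in 9, the exceptions being scaling by 1 factor per array. miR-221 was negative in 9 and positive in 2, at 1.48 without scaling and at 0.12 when the quantiles were taken over the probes of known miRNAs alone. miR-222 was negative in 10 and 0.82 without scaling, and it was called lower in 8. Relative to the median of the tested names, miR-126 stood at least 1.13 to 2.40 above by its bound, miR-221 between -0.20 and 0.41, and miR-222 between -1.54 and -0.25. That median mixes 66 names detected on both arrays with 60 detected at 29 dph only. With quantiles over all probes, the median differences of these sets were -0.70 and 0.10.

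In the authors' deposited table the processed intensity of miR-126 was 232.8 at 29 dph and 22.2 at 17 dph. In the authors' deposited table miR-221 had 77.2 at 29 dph and 106.8 at 17 dph, and miR-222 had 97.4 at 29 dph and 425.7 at 17 dph. The authors' deposited table thus places miR-126 higher and both members of the pair lower at 29 dph, although the raw densities of the pair were above those at 17 dph. The nested candidates followed in the authors' deposited table, with 211.9 at 29 dph and 47.2 at 17 dph for PN68, 228.4 at 29 dph and 362.7 at 17 dph for PN24, and 114.4 at 29 dph and 325.5 at 17 dph for PN99. How that table was background-corrected and scaled is not known here.

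**Figure D4:**
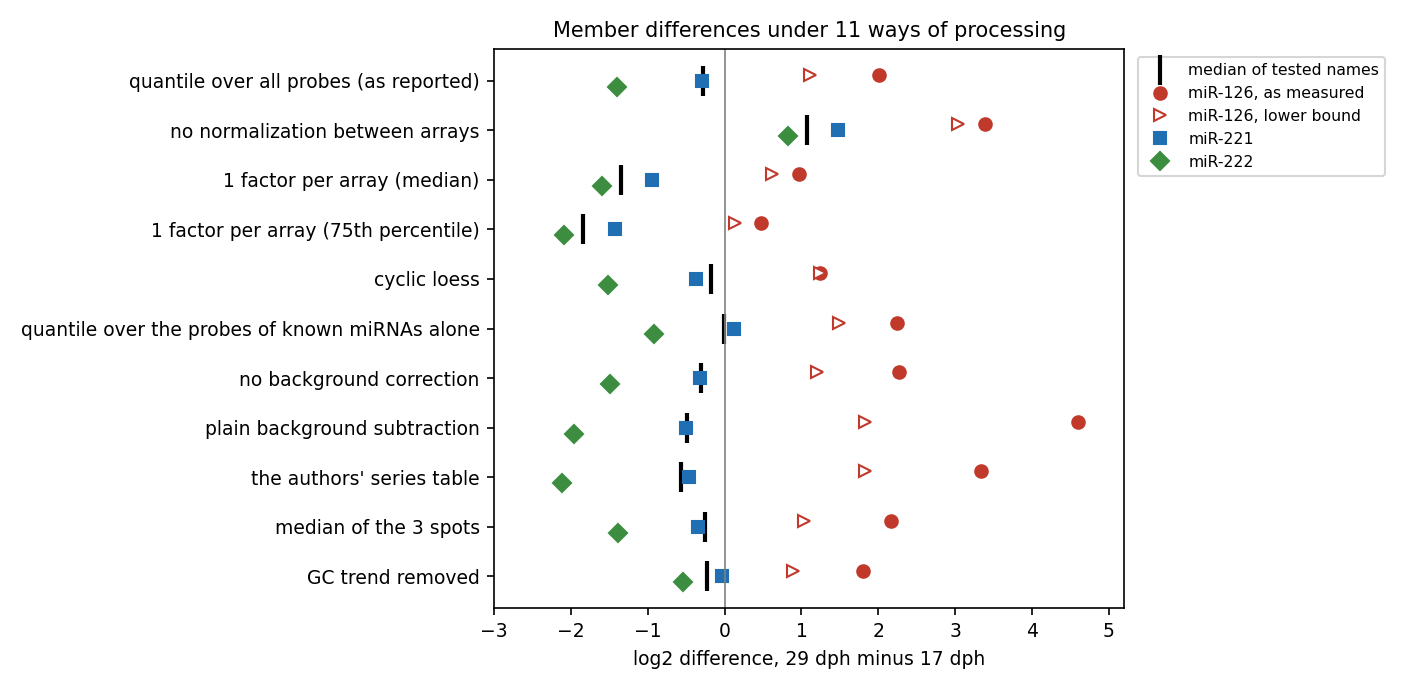
Log2 difference (29 dph minus 17 dph) of miR-126 as measured and at its lower bound, of miR-221 and of miR-222 under 11 ways of processing, with the median of the tested names as a bar. The markers shift alike between no scaling and 1 factor per array, and by unequal amounts between the other settings. miR-126 stays to the right of the pair, and miR-222 stays to the left of the median.

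GC content of the target moved with these differences. It was 42.9% for miR-126, 47.8% for miR-221 and 54.2% for miR-222, against a median of 45.5% over the tested names. The linear trend over the 126 names was -0.094 on the log2 scale per percentage point. With this trend removed miR-126 had a bound of 0.89 and a measured difference of 1.80 and was still called higher. miR-221 then stood at -0.035 and miR-222 at -0.55, no longer called lower. The distance between miR-221 and miR-222 was 0.51, against 1.11 before, and that of miR-126 over the pair at least 1.19. The part of GC content in the differences was not tested further.

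**Figure D5:**
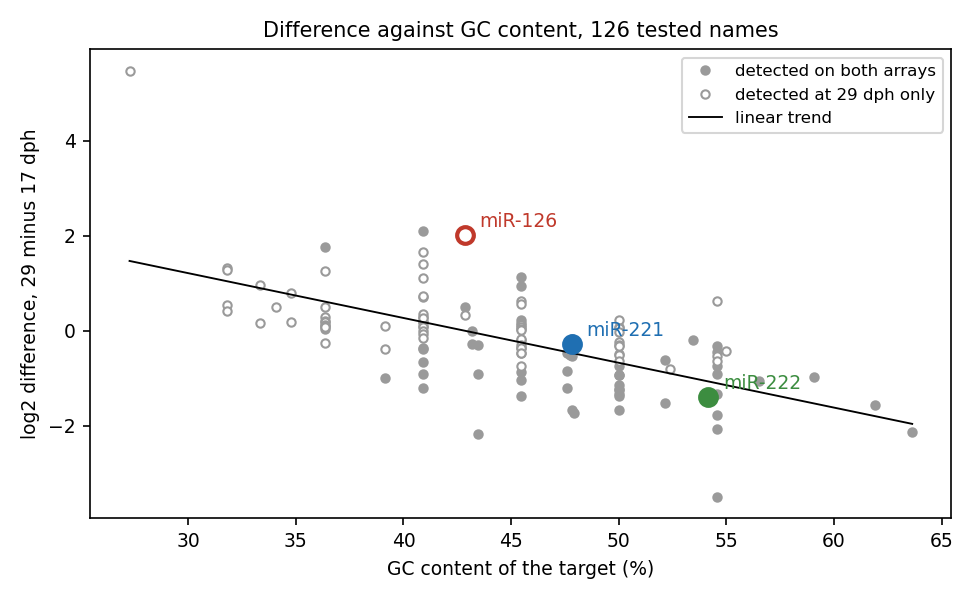
Log2 difference as measured (29 dph minus 17 dph) against the GC content of the target (%) for the 126 tested names, with names detected at 29 dph only as open circles and the linear trend as a line. miR-126 lies well above the line, while miR-221 and miR-222 lie near it.

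The names whose 2 normalized signals were nearest to those of each member were found over these 2 arrays, as a description. Nearest to miR-126 were miR-200c, miR-200b and miR-16b, at log2 distances of 0.46, 0.69 and 0.90. By the limit of 68.7 at 17 dph, each was detected at 29 dph only. The mean densities of miR-200b and miR-16b at 17 dph, 59.1 and 62.3, were above the median-based limit of 54.9. That of miR-200c, 53.9, was below it. miR-103, miR-107 and miR-15a were nearest to miR-221, at 0.14, 0.19 and 0.20, with differences of -0.42 to -0.54. miR-222 was nearest to miR-20b, miR-133b and miR-10d, at 0.20, 0.23 and 0.37, with differences of -1.14 to -1.74. Since nearness was judged on both signals, the neighbours share the detection and difference of the member by construction.

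Other miRNAs with known roles in vessels were read from a list of 17 names (miR-10a, miR-23, miR-24, miR-27, miR-92a, miR-130a, miR-132, miR-143, miR-145, miR-210 and miR-218 with their lettered forms). Of these 15 were tested, and 0 were called higher, 3 lower and 12 neither, beside 8.73% higher and 17.5% lower over all tested names. The median difference was -0.52, against -0.29 over all tested names. miR-23a, from a cluster that acts in sprouting vessels in mammals, was the brightest at 29 dph and had the most positive difference. Its density was 1442.9 at 29 dph and 118.8 at 17 dph, and its difference of 0.94 was short of a call. miR-92a, which represses angiogenesis in mammals, was the brightest at 17 dph and had the most negative difference, -3.50. The other 2 called lower were miR-132 at -1.34 and miR-27b at -1.03. miR-143 and miR-145, miRNAs of vascular smooth muscle, had differences of -0.85 and -0.53, with miR-145 below the limit at 17 dph.

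Blood and immune cell miRNAs were near background at both stages by their known probes. Of 11 names in that list 3 were detected at 29 dph and 0 at 17 dph, with densities of 36.7 to 55.8 at 29 dph and 41.4 to 47.5 at 17 dph. The median empty spot was 38.75 at 29 dph and 45.56 at 17 dph. With this background included, the densities of the 11 names summed to 467.8 at 29 dph and 484.9 at 17 dph. Those detected were miR-150, a lymphocyte miRNA, at 55.8 at 29 dph and 43.7 at 17 dph, the red cell miRNA miR-451 at 51.7 at 29 dph and 42.7 at 17 dph, and miR-146a at 47.4 at 29 dph and 44.2 at 17 dph. All 3 were called neither, with differences of 0.11 to 0.21. PN61, nested with miR-451 and also detected at 29 dph, gave a difference of -0.30, against 0.19 by the known probe. miR-144, processed from the same transcript as miR-451, stayed below the limit on both arrays, as did miR-223, a myeloid miRNA. Of the skeletal muscle markers (miR-1, miR-133 and miR-206) 5 of 5 names were detected at 29 dph and 3 at 17 dph, and their unscaled densities summed to 19473 at 29 dph and 2159 at 17 dph, most of it from miR-206 and, at 29 dph, miR-1. After normalization they went opposite ways, with miR-1 called higher, miR-133a and miR-133b called lower at -1.34 and -1.14, and miR-206 and miR-133c, the last below the limit at 17 dph, neither at 0.22 and -0.36. The summed unscaled densities of the smooth muscle markers miR-143 and miR-145 were 370.0 at 29 dph and 175.1 at 17 dph. The part of tissue makeup in the differences of miR-126, miR-221 and miR-222 was not tested.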

How the data were processed

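Small RNA of 5 whole larvae per stage was size-fractionated, extended with a poly(A) tail, tagged and stained with Cy5, per the labels' protocols. The deposited array tables hold 1 mean density per spot, a linear intensity that was neither background-subtracted nor scaled between arrays, as judged from the values. The authors' series table holds 1 processed intensity per probe. No source used here names its background and scaling steps, the scanner or the image software.

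Densities of all 3968 spots were corrected by normexp with an offset of 50 in limma 3.58.1 (R 4.3.3). Their log2 values were quantile-normalized over the probe spots, and the 3 spots of a probe were averaged. Control and empty spots were left out after correction. Probes of 1 mature name were averaged. Candidates sharing at least 16 nt with a member were searched, and those nested with it were kept. Tables were made with Python 3.11.15, pandas 2.3.3 and NumPy 2.4.6. Calling was tested on simulated arrays with known changes, raised and lowered in equal number, and no array-wide difference in signal. That test could not show how calls depend on scaling. Named miRNAs were the members and nested probes, their opposite strands, the 3 nearest names of each, and in 2 lists the brightest and most extreme members. The members and lists were chosen with earlier results of these data known. miR-222b, PN4, PN61, the neighbouring probe forms and the other named list members were chosen after their values were seen. The gap between nested probes, their contrasts and the values relative to the median of the tested names were added after the data were seen. Alternatives covered scaling, background correction, the authors' table, the summary of spots, GC content, thresholds and detection limits.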

Additional observations from a re-analysis of the deposited data

How the results depend on the processing

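Each result was recomputed under 10 other ways of processing, and the counts also under other thresholds and filters. In all, 68 recomputed values were taken as unchanged and 62 were not. Differences were unchanged if they kept direction and call, and contrasts if they moved by less than the spread of the spots. A contrast with a bound was held to the spread of the same contrast as measured. Counts of names have no such spread, and modest shifts were also taken as unchanged, such as 22 to 27 called lower without background correction. The causes were not tested.

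Without scaling, miR-221 turned to 1.48, PN24 to 2.04, miR-222 to 0.82 and PN99 to 1.29. With quantiles over known miRNAs alone miR-221 turned to 0.12 and PN24 to 0.18, and miR-222 at -0.92 was no longer called. With 1 factor per array the bounds of miR-126 and PN68 were 0.62 and 0.57 (median) or 0.13 and 0.085 (75th percentile). Their differences as measured, on which calls rest, were 0.96 and 0.73 (median) or 0.48 and 0.24 (75th percentile), so neither was called. PN68 also lost its call with cyclic loess, at 0.96, and with the GC trend removed, at 0.96 as measured and a bound of 0.67. miR-222 lost its call with the GC trend removed, at -0.55. PN99 was called lower at -1.13 (median), -1.62 (75th percentile), -1.03 (loess), -1.33 (plain subtraction) and -1.50 (authors' table), and miR-221 at -1.43 (75th percentile).

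The bound of miR-126 over the pair was 2.18 with loess, 3.06 with plain subtraction, 3.11 in the authors' table and 1.19 with the GC trend removed. miR-221 over miR-222 was 0.66 without scaling or with 1 factor per array, 1.46 with subtraction, 1.65 in the authors' table and 0.51 with the GC trend removed, where PN24 minus PN99 turned to -0.093.

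Names called higher and lower, 11 and 22 as reported, were 64 and 1 without scaling, 6 and 83 (median), 3 and 97 (75th percentile), 30 and 43 (subtraction), 23 and 48 (authors' table), 7 and 13 (GC trend removed), 18 and 39 at 1.5-fold, and 3 and 4 at 4-fold. Those called higher were 5 with loess, and those called lower 11 with quantiles over known miRNAs. The authors' table has no spots, so its calls rest on size alone. No paired analysis was possible because each stage has 1 array. Signals close to the empty spots, as for miR-126 at 17 dph, give bounds only.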
